A study of Mus musculus with 61 samples.

Results

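The Slc25a genes encode the carriers of the inner mitochondrial membrane and a few relatives in other membranes. Every row of the deposited table whose symbol starts with Slc25a was taken, which gave 44 genes of 15149 in all. The study measured RNA in cells sorted as retinal ganglion cells from DBA/2J mice, a strain that develops inherited glaucoma, and from D2-Gpnmb+ mice, the control strain on the same background with a functional Gpnmb. The 61 libraries fell into 5 groups. They were DBA/2J at 9 months given nicotinamide at 500 mg/kg/d (n = 7), DBA/2J at 9 months given water (n = 25), DBA/2J at 4 months given water (n = 10), D2-Gpnmb+ at 9 months given water (n = 9) and D2-Gpnmb+ at 4 months given water (n = 10). Per the labels' protocols, the cells were sorted as positive for Thy1.2 and negative for GFAP, Cd34, Cd45.2, Cd11b and Cd11c, and all eyes, at both ages and in both strains, were free of glaucomatous axon degeneration. The labels do not say whether each library came from a separate animal, so each p-value speaks only of the scatter among these libraries.

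A carrier of this family exchanges or imports a few related small molecules across a membrane that is otherwise closed to it. The ADP/ATP carriers export the ATP made inside the mitochondrion, the phosphate carrier supplies phosphate for it, and the aspartate/glutamate and oxoglutarate/malate carriers together form the malate-aspartate shuttle that brings reducing equivalents from cytosolic NADH inside. Other members move citrate, acylcarnitine, amino acids, iron, coenzyme A, nucleotides, glutathione or NAD. Neurons, with their high demand for ATP, depend on these steps, and nicotinamide is a precursor of the NAD that Slc25a51 imports.

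The values are normalized read counts, each library's reads divided by a factor of its own, with 5137893 to 19517881 reads per library (median 9739850). Of the labelled cell type's 9 marker genes in the table the median level was 2.91 ± 2.00 (SD, n = 61), against 285 ± 249 for 10 rod markers, 359 ± 108 for 10 bipolar cell markers, so ganglion cell markers were low in libraries labelled retinal ganglion cells. In such bulk samples, fewer cells of a type and less RNA per cell cannot be told apart. The table's columns run in 3 stretches of 10, 18 and 33 libraries, whose meaning the labels do not give. Stretch 3 holds all 4-month and all nicotinamide libraries but only 3 of the 25 DBA/2J water libraries and 3 of the 9 D2-Gpnmb+ libraries at 9 months. Within stretch 1, markers of Müller glia had a median level of 360 ± 113 in 6 DBA/2J libraries and 751 ± 152 in 4 D2-Gpnmb+ libraries, against 57.8 ± 33.2 and 105 ± 30.5 in the 3 libraries of each strain at 9 months in stretch 3. Each comparison that spans stretches is therefore given for all libraries and within stretch 3.

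RefSeq promoter windows of 300 bases, from 250 before to 50 after a start, were matched by symbol for 33 of the 44 genes (43 windows, build GRCm38.p6). The windows of the ADP/ATP carriers Slc25a4 and Slc25a5 are shown because they are the most abundant member and its nearest partner. The third window of Slc25a25, a calcium-regulated ATP-Mg/phosphate carrier, is shown because this gene passed the test in 2 comparisons below and the window holds a cAMP response element. Capitals mark CCAAT boxes and GC boxes (GGGCGG on either strand) in the first pair and the cAMP response element (TGACGTCA) alone in the last.
Slc25a4 (chr8:46211013-46211312, minus strand): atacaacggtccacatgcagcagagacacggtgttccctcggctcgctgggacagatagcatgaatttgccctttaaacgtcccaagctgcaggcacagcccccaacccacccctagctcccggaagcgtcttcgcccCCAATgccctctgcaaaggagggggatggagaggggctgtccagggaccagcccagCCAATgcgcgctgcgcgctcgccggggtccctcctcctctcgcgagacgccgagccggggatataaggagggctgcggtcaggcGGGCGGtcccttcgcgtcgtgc
Slc25a5 (chrX:36795347-36795646, plus strand): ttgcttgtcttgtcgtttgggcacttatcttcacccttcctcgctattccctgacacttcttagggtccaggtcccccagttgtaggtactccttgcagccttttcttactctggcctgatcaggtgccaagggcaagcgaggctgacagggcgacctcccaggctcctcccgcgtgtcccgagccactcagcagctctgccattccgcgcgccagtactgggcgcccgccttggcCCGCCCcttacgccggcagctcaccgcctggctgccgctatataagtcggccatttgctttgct
Slc25a25 (chr2:32424017-32424316, minus strand): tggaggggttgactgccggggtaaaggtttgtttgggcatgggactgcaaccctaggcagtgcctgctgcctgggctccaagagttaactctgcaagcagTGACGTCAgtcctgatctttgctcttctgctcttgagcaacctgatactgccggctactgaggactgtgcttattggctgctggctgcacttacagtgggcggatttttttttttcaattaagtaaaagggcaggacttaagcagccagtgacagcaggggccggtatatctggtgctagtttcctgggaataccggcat
The Slc25a4 window holds 2 CCAAT boxes and 1 GC box, which do not overlap, and the Slc25a5 window holds 1 GC box and no CCAAT box. Read on both strands, a GC box was in 83.7% of the 43 carrier windows and in 35.7% of all 32851 windows. The letters CCAAT were in 51.2% of carrier windows and 37.4% of all windows, and TGACGTCA in 4.65% and 1.79%, in Slc25a25 and in the pyrimidine nucleotide carrier Slc25a36. The NRF1 site was in 0% of carrier windows and 0.971% of all windows. The set of all windows was not limited to genes of the deposited table, and base composition was not matched. A match is a description of the letters and no measure of binding.

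Levels across the family spanned a wide range. Of the 44 genes, 23 had a mean normalized read count of at least 10 over the 61 libraries, 12 a mean of 1 to 10, and 9 a mean under 1. Per kb of annotated exon, counted as the union over all transcripts and so understating genes with long alternative exons, the median of the 44 genes was 3.06, against 2.91 over 13448 genes with a length. The plot of levels by role shows the order.

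**Figure D1:**
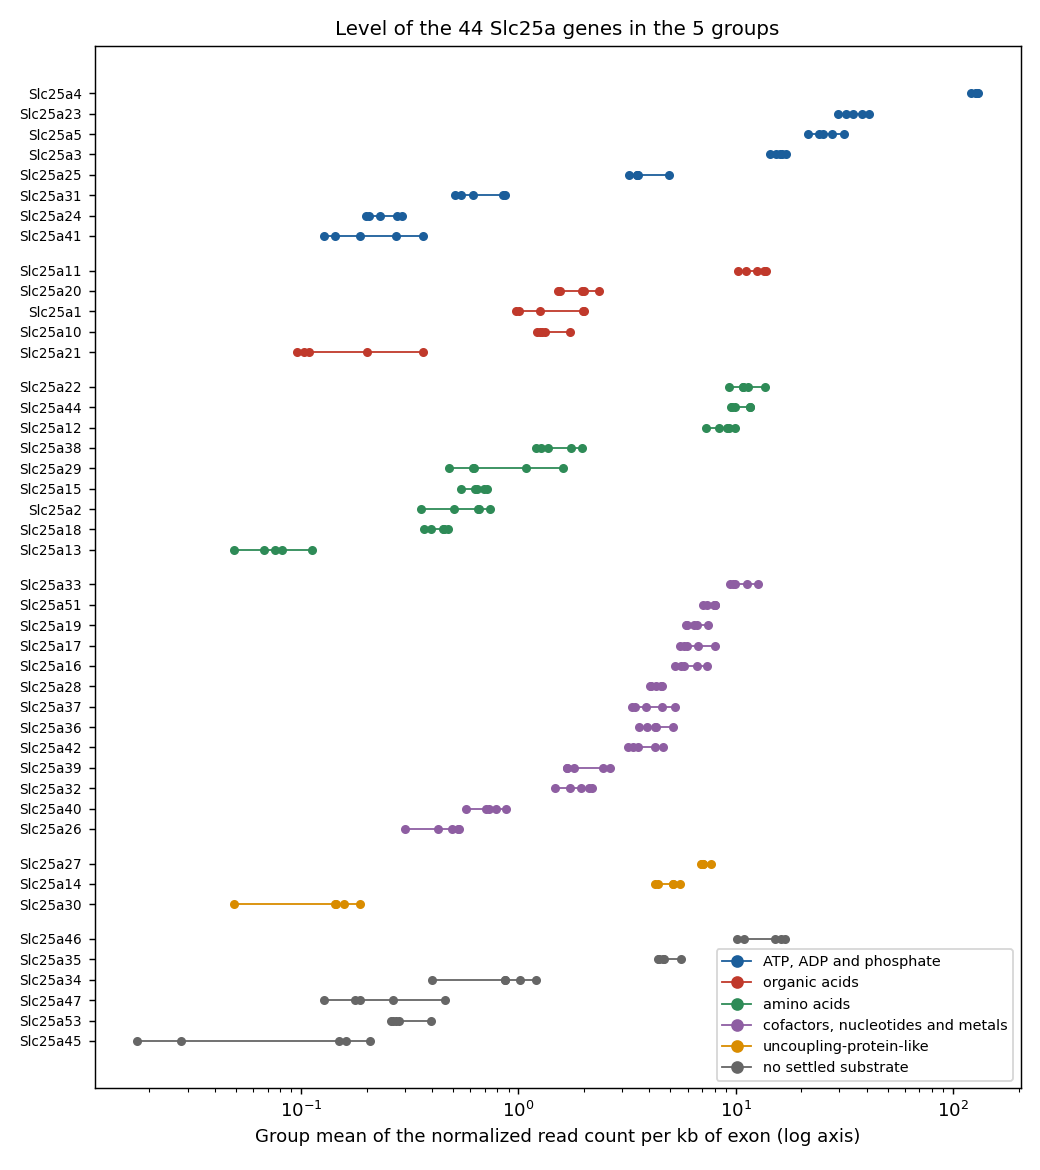
The horizontal axis gives the mean normalized read count per kb of exon on a log scale, with 1 point for each of the 5 groups, joined by a line, and the 44 genes grouped by the molecule they carry. Slc25a4 stood highest at 127 over all libraries, and within most roles 1 or 2 genes lay well above their relatives.

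Among the carriers of ATP, ADP and phosphate, Slc25a4, the ADP/ATP carrier of heart, muscle and brain, was the most abundant member. Its mean was 299.1 ± 72.7 (SD, n = 61), or 127 per kb, at percentile 99.5 of all genes with a length. Its normalized read count made up 23.2 ± 3.65% of the summed count of the 44 genes. The ubiquitous ADP/ATP carrier Slc25a5 stood at 27.3 per kb, with reads that could be shared with its pseudogene Slc25a5-ps, and Slc25a31, the ADP/ATP carrier known from testis, at 0.67 per kb. The phosphate carrier Slc25a3 stood at 16.1 per kb. Among the ATP-Mg/phosphate carriers, which load the matrix with adenine nucleotides, Slc25a23 led at 33.8 per kb. Slc25a25 stood at 4.05, Slc25a24 at 0.26 and Slc25a41 at 0.19 per kb.

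The shuttle carriers were represented by 1 paralog each. The aspartate/glutamate carrier Slc25a12, known from brain and muscle, had 8.71 per kb, against 0.07 per kb for its partner Slc25a13, known from liver. Slc25a13 had no read in 18 of 61 libraries. The oxoglutarate/malate carrier Slc25a11 had 12.5 per kb. Glutamate carrier 1, Slc25a22, had 11.9 per kb, against 0.44 per kb for glutamate carrier 2, Slc25a18. The branched-chain amino acid carrier Slc25a44 had 10.8 per kb. The citrate carrier Slc25a1, the dicarboxylate carrier Slc25a10 and the carnitine/acylcarnitine carrier Slc25a20, which feeds fatty acids to oxidation, stood at 1.58, 1.46 and 1.79 per kb. The ornithine carriers Slc25a15 and Slc25a2 stood at 0.66 and 0.59 per kb.

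Among the carriers of cofactors, nucleotides and metals, the pyrimidine nucleotide carrier Slc25a33 led at 11.2 per kb, with its paralog Slc25a36 at 4.13. The NAD carrier Slc25a51 had 7.54 per kb and, at 41.5 ± 5.80 normalized reads (SD, n = 61), was even across libraries. The mitoferrins, which import iron, were close together, with Slc25a28 at 4.38 and Slc25a37 at 4.16 per kb. The glutathione carriers Slc25a39 and Slc25a40 had 2.20 and 0.69 per kb, and the S-adenosylmethionine carrier Slc25a26 had 0.46. Of the uncoupling-protein-like members, Slc25a27 (UCP4) had 7.10, Slc25a14 (UCP5) 4.72 and Slc25a30 0.14 per kb. Slc25a46, which is not a carrier but a protein of the outer membrane with a part in mitochondrial fission and fusion, stood at 12.8 per kb. The exons of 14 members overlap another gene, by 383 bases on the opposite strand for Slc25a46 and by 379 bases for Slc25a25, and the sources used here do not say whether counting used strand.

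The first comparison asked how DBA/2J differed from D2-Gpnmb+ at 4 months, where all 20 libraries lie in stretch 3. No Slc25a gene passed the limma test at an adjusted p of 0.05, with 0 of 35 tested called, against 0.25% of all genes tested. At an unadjusted p under 0.05 there were 3 of 35, or 8.57%, against 13.5% of all genes. edgeR and DESeq2 also called 0 members, against 0.281% and 1.87% of all genes. The 3 with an unadjusted p under 0.05 were Slc25a11, Slc25a36 and Slc25a14. Slc25a11 had values of 22.5, 26.1 and 34.5 (lowest, median, highest) in DBA/2J and 14.4, 21.5 and 26.1 in D2-Gpnmb+, so the groups overlapped, with a log2 fold change of 0.29 ± 0.11 (SE; limma adjusted p = 0.229). The estimates were narrow. The largest difference among the 35 was 0.34 on the log2 scale, and the median half-width of the 95% intervals was 0.28. Slc25a4 averaged 308 ± 43.1 in DBA/2J and 303 ± 32.2 in D2-Gpnmb+ (SD, n = 10 each), a log2 fold change of 0.01 with an interval of -0.16 to 0.19. Slc25a51 averaged 44.4 ± 4.14 in DBA/2J and 44.4 ± 5.83 in D2-Gpnmb+, with an interval of -0.17 to 0.18.

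At 9 months, DBA/2J against D2-Gpnmb+, 0 of 41 members tested were called by limma, against 0.0218% of all genes. An unadjusted p under 0.05 was found for 3 members, or 7.32%, against 13.2% of all genes. edgeR called 0 members, against 0.08% of all genes, and DESeq2 called 2, against 2.31%. The 3 with an unadjusted p under 0.05 were Slc25a36, Slc25a25 and Slc25a5. Slc25a36, which carries pyrimidine nucleotides into the matrix, averaged 37.3 ± 8.73 in 25 DBA/2J libraries and 49.3 ± 6.92 in 9 D2-Gpnmb+ libraries (log2 fold change -0.42 ± 0.13, limma adjusted p = 0.144, DESeq2 adjusted p = 0.0499). Slc25a25 averaged 38.8 ± 10.1 in DBA/2J and 27.7 ± 7.17 in D2-Gpnmb+, with 0.46 ± 0.15 (limma adjusted p = 0.154, DESeq2 adjusted p = 0.0468). Within stretch 3, 3 libraries against 3, the log2 fold changes were -0.08 for Slc25a36 and 0.19 for Slc25a25, and 0 of 36 members were called, against 0% of all genes. At an unadjusted p under 0.05 there were 0 members, against 6.36% of all genes. In stretch 1, Slc25a25 ranged from 36.2 to 55.5 in 6 DBA/2J libraries and from 20.5 to 41.0 in 4 D2-Gpnmb+ libraries. Slc25a36 ranged from 37.2 to 58.3 and from 42.0 to 60.1 there. In stretch 2, Slc25a25 ranged from 20.3 to 60.6 in 16 DBA/2J libraries, against 22.4 and 37.2 in 2 D2-Gpnmb+ libraries. Slc25a36 ranged from 24.4 to 44.7, against 53.9 and 43.0. With stretch as a covariate, 0 of 41 members were called, against 0.0145% of all genes.

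The comparison of DBA/2J at 9 months with DBA/2J at 4 months had the most calls across the table, 22.4% of all genes tested. Of the 41 Slc25a genes tested, 4 were called, 1 higher and 3 lower, against 9.25% of all genes higher and 13.2% lower. The members' share was below that of the table as a whole. The split of the members' calls moved with the tool, with 0 higher and 3 lower after scaling to total reads, 3 higher and 1 lower by edgeR, and 4 higher and 1 lower by DESeq2. The split over all genes moved in the same way, with 1257 higher and 1787 lower by limma, 851 and 1508 after scaling to total reads, 1712 and 1448 by edgeR, and 2192 and 1517 by DESeq2. edgeR called 23.3% of all genes and DESeq2 27.3%. The median log2 fold change of the members was 0.06, against 0.02 over all genes.

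Slc25a46 had values of 28.8, 49.6 and 91.1 (lowest, median, highest) in 25 libraries at 9 months, against 58.4, 90.1 and 97.5 in 10 libraries at 4 months. The groups overlapped, and the 9-month median lay below the lowest 4-month value. It fell by 0.73 ± 0.16 on the log2 scale (limma adjusted p = 0.00129), and the call held in each of 10 fits that left out a 4-month library. Slc25a25 had 20.3, 36.9 and 60.6 at 9 months, against 25.3, 27.1 and 31.3 at 4 months. It rose by 0.43 ± 0.12 (adjusted p = 0.0126) and also kept its call in 10 of 10 such fits. At 4 months its 10 values lay close together. At 9 months most values lay above the highest of these, and a few lay below the lowest.

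Slc25a20, the acylcarnitine carrier, had 0.605, 7.18 and 15.1 at 9 months, against 7.38, 11.2 and 16.5 at 4 months. It fell by 0.70 ± 0.24 (limma adjusted p = 0.0317), and the call was lost without 4-month library 8, 9 or 10, with an adjusted p of up to 0.063. Slc25a23 averaged 156 ± 53.8 at 9 months and 202 ± 21.3 at 4 months. It fell by 0.45 ± 0.17 (adjusted p = 0.0463), and the call was lost on leaving out any 1 of the 10 4-month libraries, with adjusted p from 0.0534 to 0.0796. Over all genes, calls fell from 3044 to between 2337 and 2906 in these 10 fits. Slc25a4 averaged 298.6 ± 101 at 9 months and 308 ± 43.1 at 4 months, with an interval of -0.48 to 0.23, and Slc25a51 38.8 ± 5.71 at 9 months and 44.4 ± 4.14 at 4 months (limma adjusted p = 0.0918).

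None of these 4 differences was seen within stretch 3. There, the 3 DBA/2J libraries at 9 months had Slc25a46 values of 91.1, 81.2 and 89.9, inside the range of the 10 libraries at 4 months. The log2 fold change was 0.02, with an interval of -0.26 to 0.29. The 9-month values of Slc25a25 in stretch 3 were 22.9, 29.0 and 32.0, with a log2 fold change of 0.00 (interval -0.26 to 0.26). For Slc25a20 the value was 0.19 (interval -0.23 to 0.62) and for Slc25a23 -0.03 (interval -0.29 to 0.24). In stretch 3, limma called 0 of 38 members, against 0.263% of all genes. An unadjusted p under 0.05 was found for 3 members, or 7.89%, against 10.7% of all genes.

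The low Slc25a46 values at 9 months came from stretches 1 and 2. In DBA/2J at 9 months Slc25a46 averaged 34.7 ± 3.84 in stretch 1 (n = 6), 56.1 ± 15.9 in stretch 2 (n = 16) and 87.4 ± 5.40 in stretch 3 (n = 3). In D2-Gpnmb+ at 9 months it averaged 40.3 ± 8.77, 76.4 ± 3.17 and 72.9 ± 11.8 in the same stretches (n = 4, 2 and 3). Slc25a23 and Slc25a16 followed the same order in DBA/2J, and Slc25a4 was low in stretch 1, at 154 ± 32.1, against 349 ± 68.9 in stretch 2 and 318 ± 28.5 in stretch 3. Slc25a42, the coenzyme A carrier, had the opposite order, at 38.2 ± 11.1, 22.2 ± 6.94 and 17.9 ± 5.12. The ratio of Slc25a23 to Slc25a25, from which exon length drops out between libraries, was 2.20 ± 0.60 in stretch 1, 4.71 ± 1.71 in stretch 2 and 7.18 ± 1.10 in stretch 3 of DBA/2J at 9 months. At 4 months it was 7.32 ± 0.94. Slc25a23 was called lower and Slc25a25 higher at 9 months in these same libraries, so this ratio is not a separate result.

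**Figure D2:**
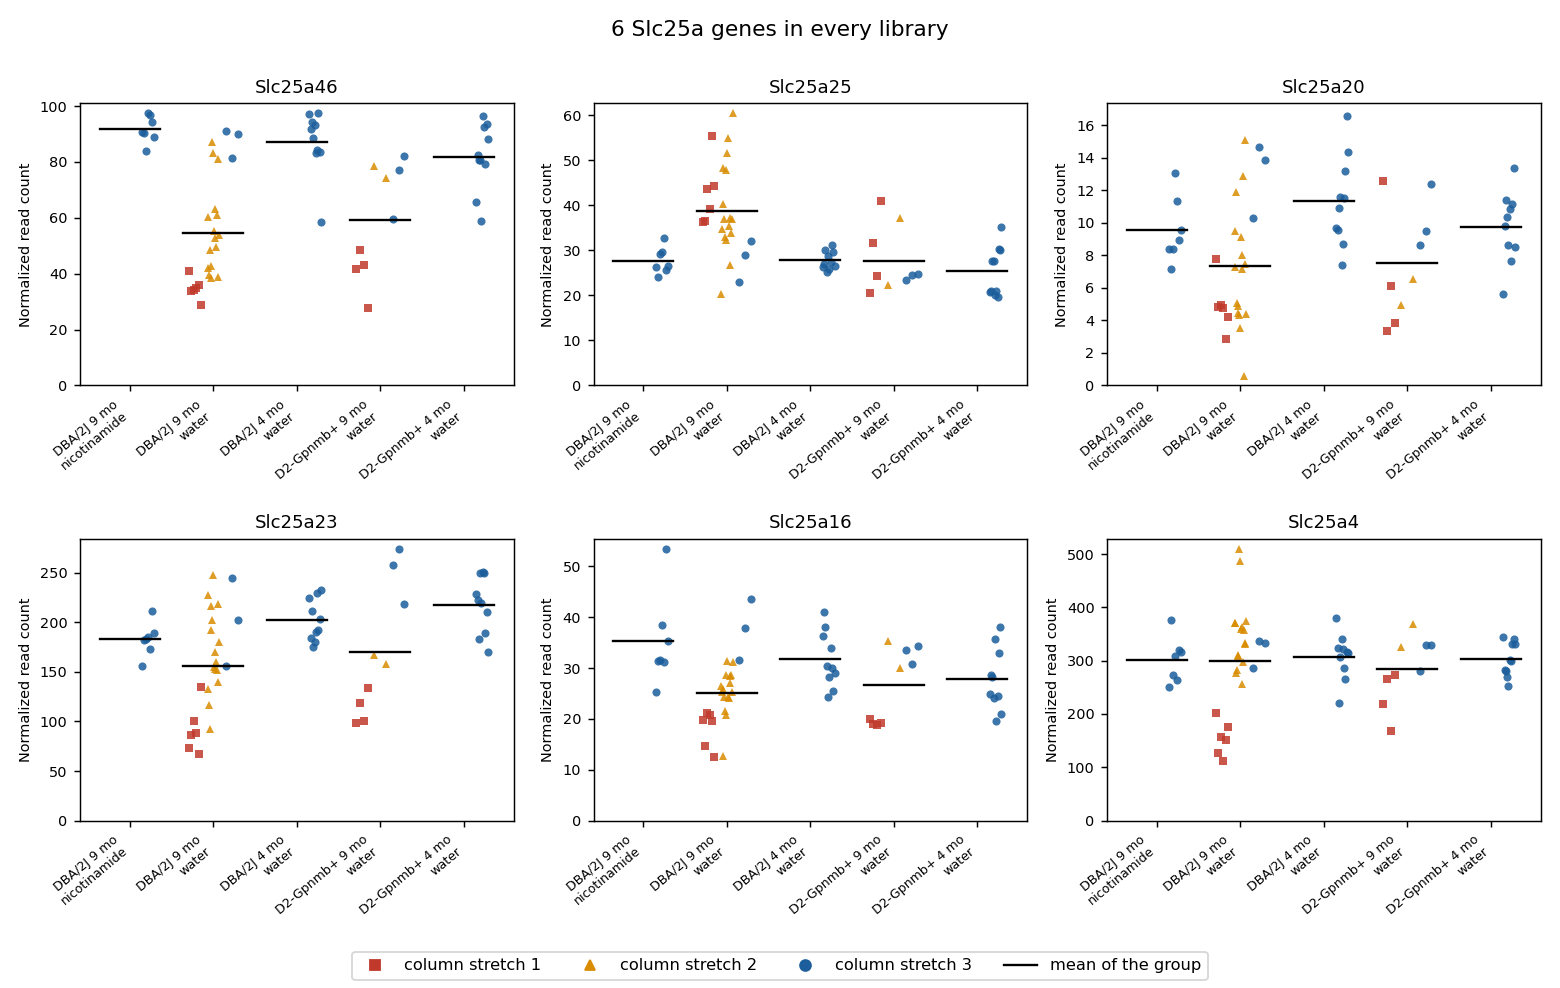
Each point is 1 library, the vertical axis is the normalized read count from 0, the black line is the mean of the group, and colour and shape give the column stretch. In DBA/2J given water at 9 months, Slc25a46 lies between 28.8 and 40.8 in stretch 1 and between 81.2 and 91.1 in stretch 3, the level of the 4-month and nicotinamide libraries.

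Markers of other retinal cells were counted in the same comparison, where 9.25% of all genes were called higher and 13.2% lower. The 10 Müller glia markers summed to 354 to 8665 at 9 months and 1329 to 4572 at 4 months, with 4 of 10 called higher. The 10 amacrine and horizontal cell markers summed to 43.6 to 520 at 9 months, against 133 to 1168 at 4 months, with 7 of 8 tested called lower. The 10 microglia markers summed to 0.348 to 213 at 9 months, with 7 of 8 tested called higher, against 0.557 to 3.57 at 4 months, where C1qa, Cx3cr1 and Tmem119 were at 0 in every library. Their median level at 9 months was 0 in stretch 1, 5.26 ± 4.89 in stretch 2 and 0.05 ± 0.05 in stretch 3. They passed the filter on low values largely through stretch 2, so the direction of this count was partly fixed in advance. Of the other lists, 3 of 10 rod markers were called higher, and 2 of 9 cone, 4 of 10 bipolar and 1 of 7 ganglion cell markers lower. Within stretch 3 no marker of these 7 lists was called. The Müller glia list turned direction there, with a median log2 fold change of -1.40, against 0.87 over all libraries, and that of amacrine and horizontal cells was -0.91, against -2.43. Their part in the Slc25a differences was not tested.

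In D2-Gpnmb+, 9 months against 4 months, limma called 0 of 35 members, against 0.0232% of all genes. edgeR and DESeq2 each called 2 (Slc25a29 and Slc25a36), against 11.6% and 16.4% of all genes. At an unadjusted p under 0.05 there were 7 of 35, or 20.0%, against 30.3% of all genes. Slc25a36 had values of 42.0, 46.9 and 60.1 (lowest, median, highest) at 9 months, against 23.1, 34.8 and 43.7 at 4 months. The groups overlapped narrowly, with a log2 fold change of 0.51 ± 0.12 (limma adjusted p = 0.0741, edgeR adjusted p = 0.0167, DESeq2 adjusted p = 0.00211). Within stretch 3 the value was 0.45, with an interval of 0.10 to 0.80 and a limma adjusted p of 0.999.

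Slc25a46 averaged 59.2 ± 19.7 at 9 months and 81.9 ± 12.05 at 4 months in D2-Gpnmb+ (log2 fold change -0.53 ± 0.17, limma adjusted p = 0.0827), and -0.16 within stretch 3. Leaving out 9-month library 9, 13, 14 or 15 brought both genes past the threshold, with adjusted p from 0.0249 to 0.0433 for Slc25a36 and from 0.044 to 0.0499 for Slc25a46. Slc25a23 passed without library 13 (adjusted p = 0.0439) and Slc25a12 without library 15 (adjusted p = 0.0459). Calls rose across the whole table in these 4 fits, to 1010 genes without library 9, 2069 without 13, 1065 without 14 and 1208 without 15, against 3 with all libraries. Slc25a29, the carrier of basic amino acids, averaged 4.17 ± 3.78 at 9 months and 1.62 ± 0.83 at 4 months, with 7.33 ± 3.75 in the 4 libraries of stretch 1. Within stretch 3, 0 of 39 members were called, against 0% of all genes, and 1, or 2.56%, had an unadjusted p under 0.05, against 4.68% of all genes.

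The difference between the strains in the effect of age was tested directly. limma called 0 of 41 members, against 0.375% of all genes. An unadjusted p under 0.05 was found for 3 members, or 7.32%, against 12.9% of all genes. edgeR called 0 members, against 0.297% of all genes, and DESeq2 1, against 2.07%. Slc25a36 had the smallest p, with an interaction of -0.67 ± 0.17 on the log2 scale (limma adjusted p = 0.0555, DESeq2 adjusted p = 0.0263). In DBA/2J it averaged 37.3 ± 8.73 at 9 months and 40.7 ± 4.07 at 4 months, and in D2-Gpnmb+ 49.3 ± 6.92 at 9 months and 34.5 ± 6.18 at 4 months. Within stretch 3 the interaction was -0.32 (interval -0.74 to 0.09), and 0 of 40 members were called, against 0.0774% of all genes. At an unadjusted p under 0.05 there were 2 members, or 5.00%, against 8.29% of all genes.

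Nicotinamide was compared with water in DBA/2J at 9 months. These 25 water libraries also served in the comparison by age, so the pair of results is not independent. Of 41 members tested, 3 were called, 2 higher and 1 lower, against 15.1% of all genes in either direction, 9.78% higher and 5.34% lower. The split was 2 higher and 0 lower after scaling to total reads, 2 higher and 3 lower by edgeR, and 2 higher and 4 lower by DESeq2. Over all genes it was 1362 higher and 743 lower by limma, 1269 and 348 after scaling to total reads, 1031 and 1244 by edgeR, and 1186 and 1752 by DESeq2. edgeR called 16.3% of all genes and DESeq2 21.1%. Slc25a46 had values of 83.7, 90.5 and 97.5 with nicotinamide, against 28.8, 49.6 and 91.1 with water. It rose by 0.82 ± 0.18 on the log2 scale (limma adjusted p = 0.00267), and all 7 fits that left out a nicotinamide library kept the call. Slc25a16, linked to coenzyme A in mitochondria, had 25.3, 31.5 and 53.4 with nicotinamide, against 12.6, 25.2 and 43.5 with water. It rose by 0.49 ± 0.17 (adjusted p = 0.0429), a call that only the fit without nicotinamide library 1 kept. The adjusted p reached 0.151 without 1 of the others.

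Slc25a25 had 24.04, 26.4 and 32.8 with nicotinamide, against 20.3, 36.9 and 60.6 with water. It fell by 0.43 ± 0.15 (limma adjusted p = 0.0446), and the call was lost on leaving out any 1 of the 7 nicotinamide libraries, with adjusted p from 0.0508 to 0.0994. Over all genes, calls fell from 2105 to between 1294 and 1861 in these 7 fits. The nicotinamide values lay inside the range of the water group for Slc25a25, and above the highest water value in part for Slc25a46 and Slc25a16. Within stretch 3, 7 libraries against 3, the log2 fold changes were 0.07 for Slc25a46 (interval -0.12 to 0.26), -0.12 for Slc25a16 (interval -0.51 to 0.28) and -0.01 for Slc25a25 (interval -0.29 to 0.28). limma called 0 of 36 members there, against 0.00749% of all genes. An unadjusted p under 0.05 was found for 6 members, or 16.7%, against 16.8% of all genes.

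Slc25a51, the carrier of NAD, averaged 40.5 ± 3.95 with nicotinamide (n = 7) and 38.8 ± 5.71 with water (n = 25). The log2 fold change was 0.07, with an interval of -0.14 to 0.28 (limma adjusted p = 0.682). Within stretch 3 it was -0.13, with an interval of -0.39 to 0.14, from water values of 50.8, 37.3 and 45.4. Slc25a4 averaged 301 ± 42.9 with nicotinamide and 298.6 ± 101 with water (interval -0.33 to 0.52). Marker counts stand beside 9.78% of all genes called higher and 5.34% lower. Among markers, the 10 Müller glia genes summed to 1315 to 2761 with nicotinamide and 354 to 8665 with water, with 5 of 10 called lower. The amacrine and horizontal cell markers summed to 204 to 1202 with nicotinamide and 43.6 to 520 with water, with 8 of 8 tested called higher. The microglia markers summed to 0.558 to 2.13 with nicotinamide, where C1qa and Tmem119 were at 0, and 0.348 to 213 with water, with 3 of 9 tested called lower. These markers passed the filter on low values largely through the water libraries of stretch 2, so the direction of that count was partly fixed in advance. Of the other lists, 7 of 9 cone, 2 of 8 ganglion cell and 1 of 10 bipolar markers were called higher, and none of 10 rod markers was called. Within stretch 3 no marker of these 7 lists was called, and no microglia marker passed the filter on low values. The Müller glia list turned direction there, with a median log2 fold change of 1.06, against -1.12 over all libraries, and that of amacrine and horizontal cells was 1.40, against 2.71. Their part in the Slc25a differences was not tested.

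**Figure D3:**
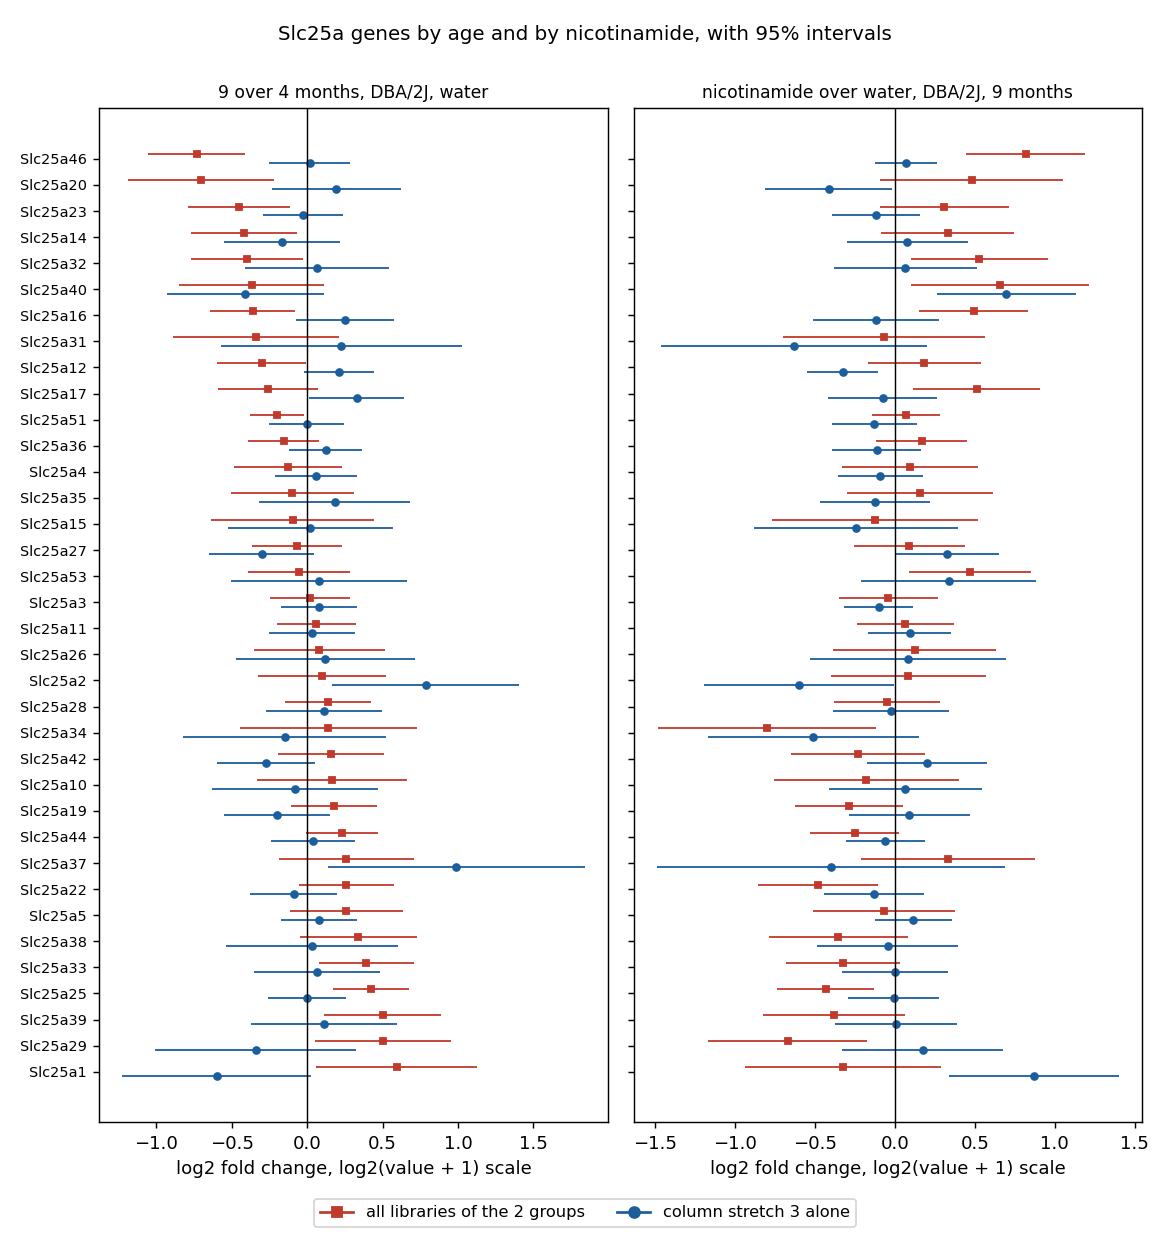
Log2 fold changes of 36 members with 95% intervals, for 9 over 4 months (left) and nicotinamide over water (right) in DBA/2J. Red squares use all libraries of the groups and blue circles use column stretch 3 alone. For Slc25a46 the red values are -0.73 and 0.82, and the blue values 0.02 and 0.07.

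Against D2-Gpnmb+ at 9 months given water, nicotinamide-treated DBA/2J gave 0 of 36 members called by limma, against 0% of all genes. Strain and nicotinamide differ together here and cannot be told apart. At an unadjusted p under 0.05 there were 8 members, or 22.2%, against 29.4% of all genes. edgeR called 2 members, against 8.17% of all genes, and DESeq2 3, against 16% of all genes. Slc25a46 averaged 91.8 ± 4.81 with nicotinamide and 59.2 ± 19.7 in D2-Gpnmb+ (log2 fold change 0.70 ± 0.19, limma adjusted p = 0.0805, edgeR adjusted p = 0.0435), and 0.34 within stretch 3 (interval 0.11 to 0.57, adjusted p = 0.138). It passed without D2-Gpnmb+ library 8, 13 or 15, with adjusted p of 0.0482, 0.0406 and 0.0465. Slc25a17, the peroxisomal cofactor carrier, had a log2 fold change of 0.55 ± 0.17 (adjusted p = 0.0837, and 0.0372 without library 13). Across the table limma called 3.68% of all genes without library 8, 11.8% without 13 and 2.81% without 15, against 0 with all libraries. Slc25a29 averaged 1.25 ± 0.40 with nicotinamide and 4.17 ± 3.78 in D2-Gpnmb+ (adjusted p = 0.101). Within stretch 3, 0 of 37 were called, against 0.299% of all genes. An unadjusted p under 0.05 was found for 6 members, or 16.2%, against 16.7% of all genes. Slc25a23 alone passed in 1 left-out fit, without D2-Gpnmb+ library 15 (log2 fold change -0.54, adjusted p = 0.0229), where 309 genes of the table were called.

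Nicotinamide-treated DBA/2J at 9 months and DBA/2J at 4 months given water lie in 1 stretch. Age and nicotinamide differ together between these groups, so their parts cannot be told apart. limma called 0 of 35 members, against 1.54% of all genes. At an unadjusted p under 0.05 there were 6 members, or 17.1%, against 14.9% of all genes. edgeR called 0 members, against 1.59% of all genes, and DESeq2 1, against 3.83%. Slc25a37, mitoferrin-1, which imports iron for heme synthesis, had 21.2, 27.5 and 56.3 with nicotinamide, against 14.4, 20.1 and 28.01 at 4 months. The log2 fold change was 0.59 ± 0.16 (limma adjusted p = 0.0647, DESeq2 adjusted p = 0.0124), with adjusted p of 0.034 without nicotinamide library 8 and 0.0316 without 4-month library 3. Over all genes, calls were 413 and 349 in those fits, against 200 with all libraries. One library of DBA/2J at 9 months given water reached 126, the highest Slc25a37 value, while the other 2 of stretch 3 had 19.9 and 24.8. Slc25a46 averaged 91.8 ± 4.81 with nicotinamide and 87.1 ± 11.4 at 4 months (interval -0.09 to 0.26), Slc25a51 40.5 ± 3.95 and 44.4 ± 4.14 (interval -0.29 to 0.03), and Slc25a4 301 ± 42.9 and 308 ± 43.1 (interval -0.23 to 0.17).

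Genes that work beside these carriers were taken from 4 lists. Of carriers under symbols other than Slc25a, 4 of 8 were in the table and none was called by limma in the 8 comparisons of all libraries. The table also held 10 of 15 transporters of pyruvate, calcium and sideroflexin type, 4 of 4 outer membrane channels and 8 of 10 genes of carrier import. Between the strains at 4 months 1 of these was called, against 0.25% of all genes tested. This was Mpc1, a subunit of the mitochondrial pyruvate carrier, at 7.23 ± 1.67 in DBA/2J and 2.47 ± 0.85 in D2-Gpnmb+. The difference was 1.26 ± 0.16 on the log2 scale (limma adjusted p = 8.24e-05). At 9 months Mpc1 was not called, and averaged 6.91 ± 2.27 in DBA/2J and 3.35 ± 0.96 in D2-Gpnmb+. In stretch 3 at 9 months it averaged 6.76 ± 1.81 and 3.61 ± 0.48. By age in DBA/2J, limma called 1 of 10 transporters, 1 of 4 channels and 1 of 8 import genes tested, against 22.4% of all genes. Mpc2, the partner of Mpc1, rose by 0.46 ± 0.16 (limma adjusted p = 0.0318). The import receptor Tomm70a fell by 0.38 ± 0.14 (adjusted p = 0.0484). In stretch 3 at 9 months they averaged 9.70 ± 1.89 and 98.9 ± 8.22, against 9.42 ± 1.75 and 91.8 ± 11.2 at 4 months. Tspo of the outer membrane rose by 0.78 ± 0.22 (adjusted p = 0.0100), from 0.61 ± 0.37 to 1.95 ± 1.23. Its 4-month median of 0.62 lay under the filter's lowest value of 1, so it entered the test largely through the 9-month libraries. With nicotinamide, 1 of 10 transporters tested was called, against 15.1% of all genes. This was the serine transporter Sfxn1, which rose by 0.78 ± 0.25 (limma adjusted p = 0.0305), at 21.9 ± 4.47 with nicotinamide and 13.6 ± 7.01 with water. In the 3 water libraries of stretch 3 it averaged 21.8 ± 4.72. In the 6 comparisons that span stretches, no gene of these 4 lists was called within stretch 3. By age in DBA/2J, 3 of the 4 outer membrane channels passed the filter there, and Tspo averaged 0.83 ± 0.68 in the 3 9-month libraries.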

How the data were processed

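RNA was measured by sequencing in 61 libraries of sorted mouse retinal cells. The submitters' processing notes name TopHat2 2.0.7, Bowtie2 2.0.6, HTSeq and the mm10 build. The deposited signal values are, from the values themselves, read counts divided by a library factor: 100% of those under 1000 reads were whole multiples of 1 read (tolerance 0.05). Of 15171 rows, 22 named by dates were left out, and every column was used (0 unused). Columns were matched to groups by name, not to single samples. Every pair of libraries differed by more than sampling noise (chi-squared per gene of 7.09 or more).

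limma 3.58.1 (R 4.3.3, trend and robust) was fitted on log2(value + 1) of all genes that reached a value of 1 in as many libraries as the smaller group holds, separately for each of 8 comparisons, with Benjamini-Hochberg adjustment at 0.05. Fold changes on this scale understate low genes. edgeR 4.0.16 (TMM) and DESeq2 1.42.0 on the recovered reads, a pseudocount of 0.5, no filter, scaling to total reads, leaving out libraries, stretch 3 alone and stretch as a covariate were alternatives. The stretches were read from the column order. The scripts were tested on simulated data. Lengths and positions came from GENCODE M21, sequences from RefSeq. In each comparison, up to 8 called members, or the 3 with the smallest p, were named, beside a fixed set of carriers and the levels of every member. Slc25a29 as an edgeR and DESeq2 call by age, and the values of Slc25a42 by stretch, were chosen after their values were seen. The members and the lists were chosen with earlier results of these data known. Counting error alone limits genes with few reads.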

Additional observations from a re-analysis of the deposited data

Results flagged for a closer look

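For 23 members, the fixed set and those called, 92 groups of 7 to 10 libraries were looked at, and 7 held 1 library far from the others by Dixon's test, where chance gives about 1 in 20. In D2-Gpnmb+ at 9 months, library 5 had the highest Slc25a1 (12.8, next 5.58) and the highest Slc25a42 (61.6, next 32.9). Among nicotinamide libraries, library 7 had 35.3 for Slc25a11 (next 29.3) and library 2 had 56.3 for Slc25a37 (next 34.9). In D2-Gpnmb+ at 4 months, library 5 had 36.6 for Slc25a37 (next 23.9). In DBA/2J at 4 months, library 5 had 49.8 for Slc25a36 (next 43.5) and library 10 had 58.4 for Slc25a46 (next 83.1).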

How the results depend on the processing

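Over all 8 comparisons, a pseudocount of 0.5 and no filter on low values left the number of members called within 1.5 times that reported. With DESeq2 the number called was 2 for the strains at 9 months, 2 by age in D2-Gpnmb+, 1 for the interaction, 6 for nicotinamide against water, 3 for nicotinamide against D2-Gpnmb+ and 1 for nicotinamide against 4 months. In the same order, DESeq2 called 2.31%, 16.4%, 2.07%, 21.1%, 16% and 3.83% of all genes. With edgeR the number of members called was 2 by age in D2-Gpnmb+, 5 for nicotinamide against water and 2 for nicotinamide against D2-Gpnmb+. The shares of all genes there were 11.6%, 16.3% and 8.17%. After scaling to total reads the number of members called was 1 for the interaction, where 1.52% of all genes were called. Within stretch 3 it was 0 by age in DBA/2J, against 0.263% of all genes, and 0 for nicotinamide against water, against 0.00749%. With stretch as a covariate it was 0 in each, against 0.0589% and 0% of all genes. In this pair of comparisons, stretches 1 and 2 held only water libraries at 9 months. The fold change with stretch as a covariate was therefore set by stretch 3, so it is no separate check on the fit there. By age in DBA/2J, the log2 fold change turned sign within stretch 3 for Slc25a20 (0.19), Slc25a25 (-0.00033) and Slc25a46 (0.016). With nicotinamide it did so for Slc25a16 (-0.12). Within stretch 3 the interval of each of these spanned 0, so no opposite change was shown. Leaving out a library gave 2 to 4 calls by age in DBA/2J, 0 to 3 by age in D2-Gpnmb+, 1 to 2 for nicotinamide against water, 0 to 2 for nicotinamide against D2-Gpnmb+ and 0 to 1 for nicotinamide against 4 months. Over all genes, in the same order, these fits gave 2337 to 2906, 0 to 2069, 1294 to 1861, 0 to 1537 and 16 to 413 calls. With all libraries the calls were 3044, 3, 2105, 0 and 200. The causes were not tested.

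Scaling to total reads moved the median log2 fold change of all genes to 0.24 for the strains at 4 months, -0.13 for the strains at 9 months, 0.31 by age in D2-Gpnmb+ and -0.36 for the interaction, and that of the members to 0.24, -0.10, 0.26 and -0.34. No paired analysis was possible because the library numbers in the labels are not shared between groups and those in the column names are not tied to single samples. The 9 members with a mean under 1 are limited by depth. Stretch 3 has 3 libraries for each strain at 9 months given water.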
